A study of Mus musculus with 6 samples.

Results

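The genes described here encode the MHC class I antigen presentation pathway and the immunoproteasome. They are the 10 rows of the deposited count table named H2-K1, H2-D1, H2-T23, B2m, Tap1, Tap2, Tapbp, Psmb8, Psmb9 and Nlrc5, of 56748 genes in all. The list was given by gene name, and all 10 passed the filter on low counts that left 16377 genes for testing. The samples were 6 whole-aorta RNA-seq libraries from mice aged 6 months, every one labelled as Apoe-deficient and given angiotensin II for 28 days by osmotic minipump. Of these, 3 were wild-type littermates for soluble ST2 (WT) and 3 were littermates lacking it (sST2-KO). Soluble ST2 is the secreted form of the IL-33 receptor, which binds IL-33 away from cells. Both groups thus share the angiotensin II and, by their labels, the Apoe deficiency, and no untreated aorta was analysed here. Apoe itself had 15.1, 11.6 and 507 CPM, the scaled counts described below, in the WT libraries against 172, 86.7 and 145 CPM in the sST2-KO libraries. Its counts ran from 145 to 8509 per library, so the libraries labelled alike differ in this gene, with WT replicates 1 and 2 lowest and WT replicate 3 highest. WT replicate 3 was also the library with 6205 CPM of the hepatocyte gene Alb, and how its Alb and Apoe counts relate was not tested. Whether the Apoe counts come from a transcript left by the targeted allele cannot be told from counts per gene. The labels used here name neither the way the sST2 allele was made nor the sex of the mice.

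Class I molecules display peptides from a cell's own proteins to CD8 T cells and NK cells. The proteasome cuts the proteins, the TAP transporter carries the peptides into the endoplasmic reticulum, tapasin loads them, and a heavy chain paired with beta-2 microglobulin takes them to the surface. Nearly all nucleated cells carry the pathway, and interferons raise it, partly through the transactivator NLRC5 and through immunoproteasome subunits that replace the constitutive catalytic ones.

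Total counts were 15615658 to 17988552 per library. Levels are TMM-normalized CPM, that is counts scaled to a library size shared by all samples. All 6 listed smooth muscle markers were found, with a summed level of 3010 to 9255 CPM in WT against 5011 to 10488 CPM in sST2-KO. Several libraries stood apart. WT replicate 2 had 37.8% of its counts in mitochondrially encoded genes, against 7.08 to 23.7% elsewhere. sST2-KO replicate 2 held 14872 CPM of 6 airway epithelial markers, against at most 21.3 CPM in any other library, and WT replicate 3 held 6205 CPM of the hepatocyte gene Alb, against at most 3.83 CPM. Il1rl1, the gene of both ST2 forms, had 42 to 119 counts per library with overlapping groups, and counts per gene do not separate its soluble form. In whole aortas, fewer cells of a type and less RNA per cell cannot be told apart.

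On the mm39 positions of the table, 8 of the 10 genes lie on chromosome 17 between 34134873 and 36343747. Psmb9, Tap1, Psmb8 and Tap2 occupy 34335 bases there, from 34400961 to 34435295. B2m is on chromosome 2 (121978167 to 121983564) and Nlrc5 on chromosome 8 (95160984 to 95253900). Promoters are shown as a description, and their part in the levels of these genes was not tested. RefSeq promoter windows (GRCm38.p6, 250 bases before to 50 after the start) matched 8 of the 10 genes, without Tap2 and Nlrc5. The stretches printed next are from the paired class I chains, whose products form 1 complex at the surface, and from the interval between the divergent starts of Tap1 and Psmb9. Capitals mark matches to the NF-kB site of enhancer A (GGGGA and TCCCC, 1 base apart), an interferon-stimulated response element (GAA and GAAAC, 2 bases apart), a pair of IRF sites (GAAA and GAAA, 2 bases apart), the X2 core (TGACG) and the Y box (ATTGG), on either strand.
H2-K1 (chr17:34000348-34000463, minus strand): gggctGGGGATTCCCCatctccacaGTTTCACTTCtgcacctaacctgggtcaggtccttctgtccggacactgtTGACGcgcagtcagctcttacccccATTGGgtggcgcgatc
H2-D1 (chr17:35262918-35263033, plus strand): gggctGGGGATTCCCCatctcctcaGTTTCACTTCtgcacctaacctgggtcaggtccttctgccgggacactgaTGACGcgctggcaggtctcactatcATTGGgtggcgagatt
B2m (chr2:122147537-122147652, plus strand): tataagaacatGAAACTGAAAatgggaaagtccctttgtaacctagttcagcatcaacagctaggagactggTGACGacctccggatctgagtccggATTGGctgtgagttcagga
Tap1 to Psmb9 (chr17:34187331-34187555, plus strand): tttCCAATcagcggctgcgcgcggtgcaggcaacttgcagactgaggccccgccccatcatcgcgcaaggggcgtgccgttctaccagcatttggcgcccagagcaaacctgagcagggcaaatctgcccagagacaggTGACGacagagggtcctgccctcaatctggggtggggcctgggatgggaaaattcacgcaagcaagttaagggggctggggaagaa

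The H2-K1 and H2-D1 stretches were identical at 103 of 116 bases (88.8%) and carried the same order of motifs. The NF-kB letters stood in both and in 0.0487% of the 32851 RefSeq promoter windows, and the response element in both and in 1.73%. An X2 core followed 15 to 25 bases later by a Y box, the arrangement bound by the complex that recruits NLRC5, was found in H2-K1, H2-D1 and B2m, each with a gap of 20 bases, and in 0.435% of windows. The IRF pair was found in B2m and H2-T23 and in 3.44% of windows; it can overlap the response element, and did not in these. Psmb8 alone of the 8 held a gamma-activated site (TTC and GAA, 3 bases apart, 8.30% of windows). The X2 core by itself was present in 5 of 8 windows and 20.8% of all, and the Y box in 7 of 8 and 37.4% of all. The windows of Tap1 and Psmb9 share the interval printed above. Their X2 core and Y box are therefore the same letters, counted once for each gene. The motifs and the range of gaps were settled after matches in H2-K1, H2-D1 and B2m had been seen, and a match is a description of letters and not of bound factors.

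Levels per gene length were compared as CPM per kilobase of the deposited gene length, averaged over all 6 libraries (SD, n = 6). B2m, the light chain shared by all class I molecules, was the most abundant at 1312 ± 405. The heavy chains H2-D1 (378 ± 126) and H2-K1 (277 ± 94.2) followed, in the same order in 6 of 6 libraries although their SD ranges overlapped. The same length divides every library, so the order depends on the length used. Deposited lengths were 2579 bases for H2-D1 and 2938 for H2-K1, whereas their longest coding transcripts in GENCODE vM21 have 2102 and 1619 bases. The order of H2-D1 and H2-K1 is therefore not settled by these values. Tapbp, the gene of tapasin, had 59.3 ± 8.15 and H2-T23, the gene of the non-classical class I molecule Qa-1, had 49.4 ± 17.6; Tapbp was higher in 5 of 6 libraries and the ranges overlapped. Psmb8 (11.4 ± 5.77) and Tap2 (11.1 ± 3.26) did not differ beyond their spread, with Psmb8 higher in 2 of 6 libraries. Tap1 (6.88 ± 2.501) and Psmb9 (6.51 ± 3.05) likewise overlapped, and Nlrc5 was lowest at 2.31 ± 1.10.

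Transcripts of the class I heavy chains varied more within the WT group than between genotypes. H2-K1 had 1127, 341 and 922 CPM in the WT libraries, always listed in order of replicate, against 963, 660 and 874 CPM in the sST2-KO libraries. H2-D1 had 1357, 481 and 1120 CPM in WT against 1147, 694 and 1048 CPM in sST2-KO. For both genes WT replicate 2 was the lowest library and every sST2-KO library lay between it and WT replicate 1. The log2 change of sST2-KO against WT was 0.063 (SE 0.45) for H2-K1 and -0.033 (SE 0.43) for H2-D1 (edgeR quasi-likelihood test, adjusted p = 0.960 and 0.982), and the sign of both differed between alternatives. H2-T23 had 221, 73.4 and 177 CPM in WT against 142, 118 and 125 CPM in sST2-KO, with a fitted log2 change of -0.29 (SE 0.38; adjusted p = 0.755 in edgeR). Its sST2-KO libraries were close together and lay below WT replicates 1 and 3 and above WT replicate 2.

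B2m, unlike H2-K1, H2-D1 and H2-T23, did not have its lowest value in WT replicate 2. It had 1612, 1072 and 1339 CPM in WT against 1085, 562 and 1097 CPM in sST2-KO. The lowest library was here sST2-KO replicate 2, the one with airway transcripts, and WT replicate 2 lay just under the other sST2-KO libraries. The WT mean was 1341 ± 270 CPM and the sST2-KO mean 915 ± 305 CPM (SD over n = 3 libraries per group). The fitted log2 change, -0.55 (SE 0.34), missed the threshold (edgeR adjusted p = 0.547). Between WT replicates 1 and 2, B2m differed 1.504-fold, H2-K1 3.30-fold and H2-D1 2.82-fold.

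**Figure D1:**
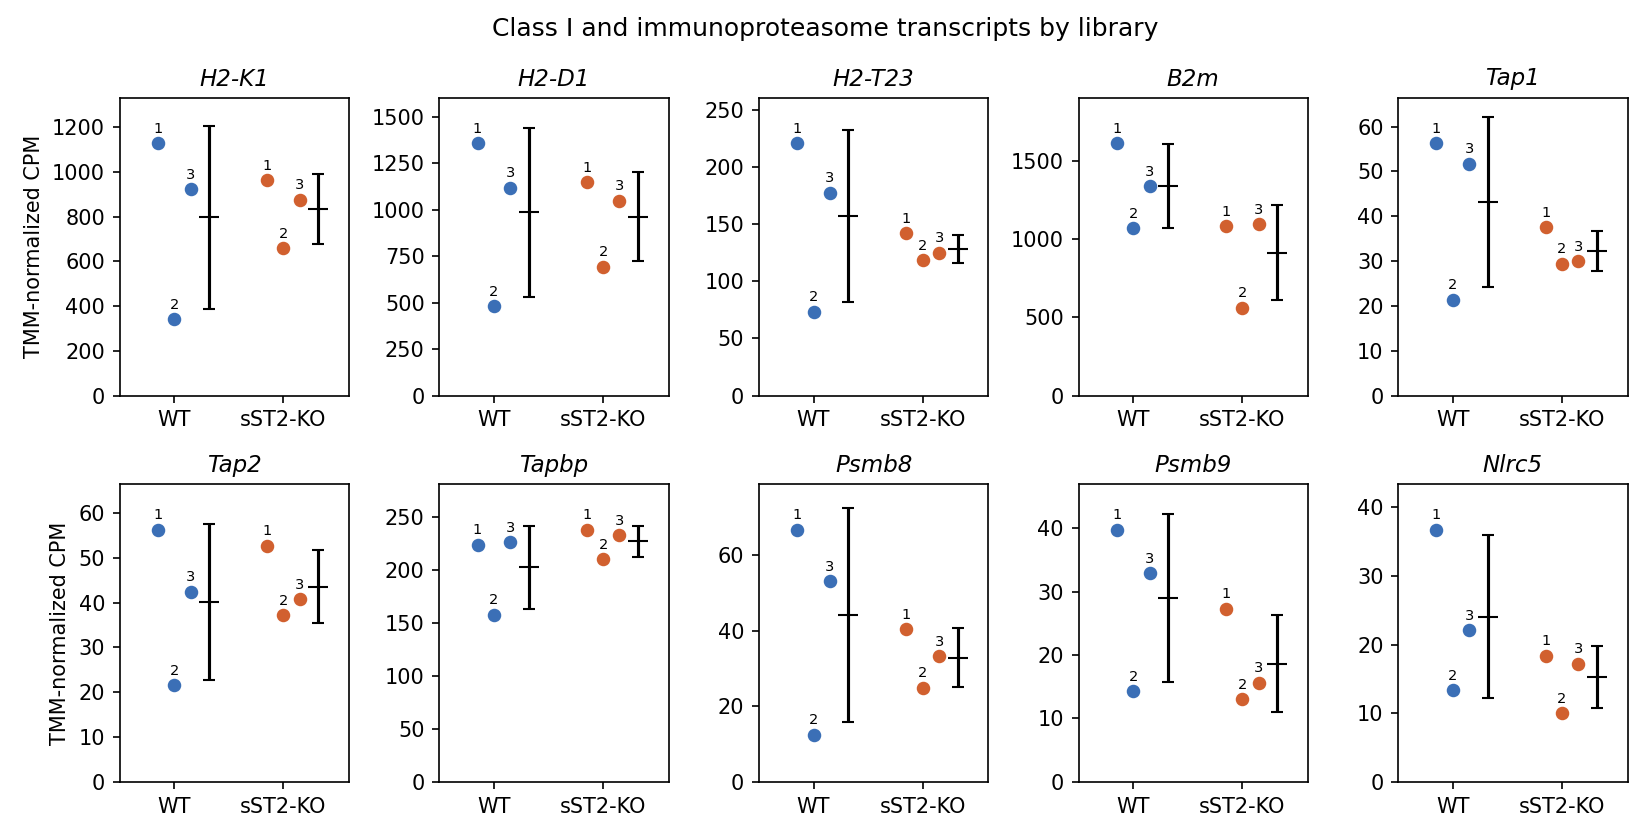
TMM-normalized CPM (vertical axes, linear from 0) of the 10 genes in 3 WT (blue) and 3 sST2-KO (orange) libraries; small digits are replicate numbers, and black bars give the mean and SD of each group. WT replicate 2 is the lowest point for 7 of the 10 genes and WT replicate 1 the highest for 9.

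Heavy chain genes share stretches of sequence, so some reads could be split among them in ways the counting does not show. In GENCODE vM21 transcripts of 18 listed H2 heavy chain genes, 8.79% of the 50-base windows of H2-K1, 11.98% of those of H2-D1 and 9.84% of those of H2-T23 also occurred in another of these genes. At 100 bases the shares were 0%, 4.44% and 3.71%. Summing the counts of 19 heavy chain genes removes this uncertainty among them only if each shared read was counted once. The counter is not given. The sum was 3093, 1049 and 2577 CPM in the WT libraries against 2577, 1661 and 2334 CPM in the sST2-KO libraries. It showed the same pattern as H2-K1 and H2-D1, which supplied 78.3 to 82.4% of it in each library. Its log2 change was -0.032 (SE 0.44, edgeR adjusted p = 0.983), and the sign turned without WT replicate 1 (0.27), without WT replicate 3 (0.074) and without sST2-KO replicate 2 (0.13).

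Genes of peptide transport and loading differed in direction, and none passed the threshold. Tap1, a subunit gene of the TAP transporter, had 56.2, 21.4 and 51.8 CPM in WT against 37.5, 29.4 and 29.9 CPM in sST2-KO, with a fitted log2 change of -0.42 (SE 0.35; adjusted p = 0.636 in edgeR). Tap2, the gene of its partner, had 56.2, 21.6 and 42.4 CPM in WT against 52.7, 37.1 and 40.8 CPM in sST2-KO, with a fitted log2 change of 0.12 (SE 0.34; adjusted p = 0.901 in edgeR). Per kilobase of the deposited gene length (5476 bases for Tap1, 3781 for Tap2), Tap2 was above Tap1 in 6 of 6 libraries. The same lengths divide every library, so this order depends on them. In CPM, Tap2 was above Tap1 in every sST2-KO library, equal to it in WT replicate 1 and below it in WT replicate 3. Tapbp varied least, with 224, 158 and 227 CPM in WT against 239, 211 and 233 CPM in sST2-KO (log2 change 0.16, SE 0.21, edgeR adjusted p = 0.747). WT replicate 2 was again the lowest library for all 3 genes. Tap1 and Psmb9 overlap by 212 bases on opposite strands, and Tapbp shares 3422 bases with Zbtb22 on the same strand (200 to 614 counts per library). The strand setting of the counting is not given, so reads there cannot be told apart.

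Psmb8 and Psmb9 encode the inducible catalytic subunits LMP7 and LMP2 of the immunoproteasome. Psmb8 had 66.8, 12.5 and 53.2 CPM in WT against 40.5, 24.99 and 33.3 CPM in sST2-KO. WT replicate 1 was 5.33 times WT replicate 2, the widest gap between those libraries among the 10 genes, and all sST2-KO libraries fell inside it. Psmb9 had 39.8, 14.3 and 32.9 CPM in WT against 27.3, 13.01 and 15.6 CPM in sST2-KO. Here WT replicates 1 and 3 were above every sST2-KO library, and WT replicate 2 lay between sST2-KO replicates 2 and 3. The log2 changes were -0.43 (SE 0.55) for Psmb8 and -0.64 (SE 0.44) for Psmb9 (edgeR adjusted p = 0.752 and 0.569).

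Each inducible subunit was also set against the constitutive subunit it replaces, as the log2 ratio of their counts within a library, which does not depend on library scaling. For Psmb9 over Psmb6 the ratio was -1.23, -1.82 and -1.37 in the WT libraries against -1.88, -2.87 and -2.98 in the sST2-KO libraries. The groups did not overlap, though sST2-KO replicate 1 lay only just below WT replicate 2. The means were -1.47 ± 0.31 and -2.57 ± 0.61 (SD, n = 3 each), a difference of -1.10 (exact permutation test, two-sided, p = 0.10, the smallest that 3 against 3 allows; adjusted p = 0.30 over the 3 ratios). For Psmb8 over Psmb5 the ratio was 0.22, -0.94 and -0.0081 in WT against -0.80, -1.25 and -1.20 in sST2-KO. WT replicate 2 lay inside the sST2-KO range, and the difference of -0.84 had an exact permutation p of 0.20 (two-sided; adjusted p = 0.30). For Psmb10, the gene of the third inducible subunit MECL-1, over Psmb7 it was -0.10, -1.41 and -0.086 in WT against -0.43, -0.16 and -0.47 in sST2-KO, a difference of 0.18 (exact permutation p = 1.0, two-sided; adjusted p = 1.0). That difference was -0.26 without WT replicate 2.

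**Figure D2:**
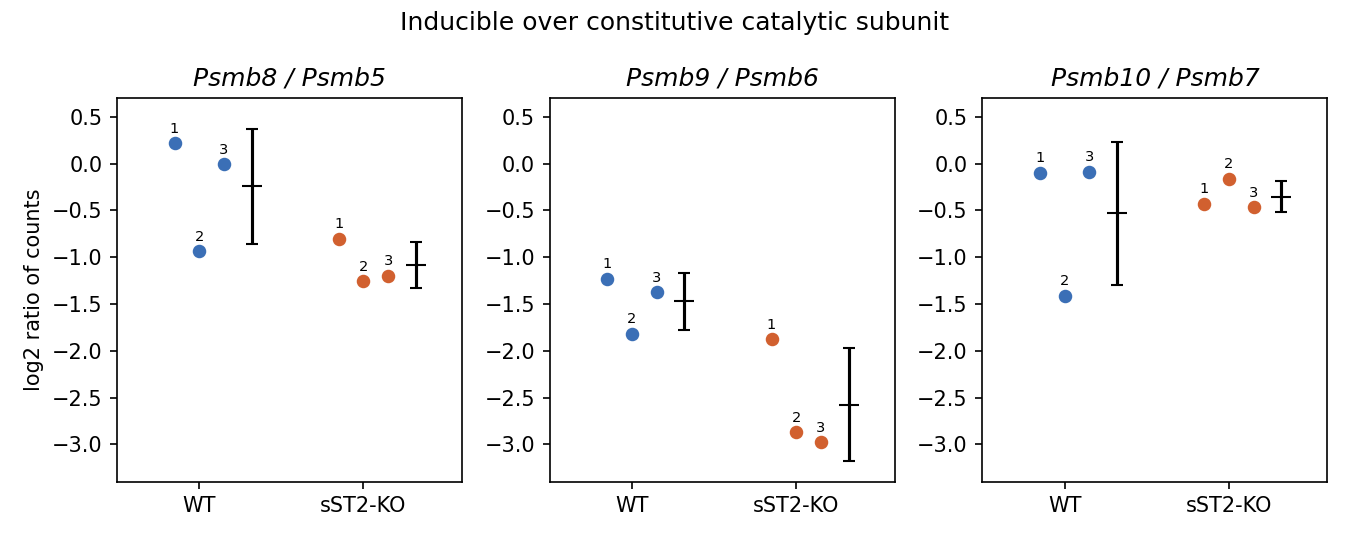
Log2 ratio of counts (vertical axis) of each inducible catalytic subunit to the constitutive subunit it replaces, in 3 WT (blue) and 3 sST2-KO (orange) libraries numbered by replicate, with black bars for the mean and SD. Psmb9 over Psmb6 lies between -1.82 and -1.23 in WT and between -2.98 and -1.88 in sST2-KO, whereas the other pairs overlap.

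The constitutive terms of these ratios are given for comparison. Psmb5 had 57.5, 24 and 53.5 CPM in WT against 70.7, 59.6 and 76.3 CPM in sST2-KO, and Psmb6 had 93.2, 50.4 and 85.3 CPM in WT against 100 to 123 CPM in sST2-KO replicates 1 and 3 with 95.3 CPM in replicate 2. Neither overlapped between groups, which held in the higher direction for 9.09% of all tested genes. Their log2 changes were 0.61 (SE 0.33) and 0.48 (SE 0.26), and neither passed (edgeR adjusted p = 0.504 and 0.506). Psmb7 was at 0.040 in log2 change (SE 0.23; adjusted p = 0.952 in edgeR), and Psmb10 had 48.7, 13.7 and 44.7 CPM in WT against 40.3, 31.0 and 36.9 CPM in sST2-KO.

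Nlrc5, the gene of the class I transactivator, had 36.7, 13.3 and 22.1 CPM in WT against 18.4, 10.04 and 17.2 CPM in sST2-KO. WT replicates 1 and 3 were above all sST2-KO libraries and WT replicate 2 was below 2 of them. Of the 10 genes it had the most negative log2 change, -0.66 (SE 0.41), and the lowest adjusted p (edgeR, 0.544).

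As a set, 7 of the 10 genes had a negative log2 change, with a median of -0.36; among all 16377 tested genes 46.5% were negative and the median was 0.042. In edgeR 0 of the 10 passed, in either direction, and 0% of all tested genes did. None of the 10 had an unadjusted p under 0.05 (5.95% of tested genes did so in the lower direction), and 0 were called by limma-voom, with or without sample quality weights, or by DESeq2, which called 1.36% of tested genes lower and 0.354% higher. The groups overlapped for all 10, while 10% of tested genes were without overlap in the lower direction. SEs of 0.21 to 0.55 on the log2 scale leave changes of the observed size unresolved.

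WT replicate 2 stood apart within this spread. It was the lowest of the 6 libraries for 7 of the 10 genes, against 28.3% of tested genes, and WT replicate 1 was the highest for 9 of the 10, against 10.8%. Each gene's log2 CPM minus its own mean had a median over the 10 genes of 0.62, -0.81 and 0.30 in the WT libraries against 0.21, -0.34 and 0.0013 in the sST2-KO libraries. The 10 genes took 0.637%, 0.277% and 0.513% of the counts outside mitochondrially encoded genes in WT, and 0.481%, 0.289% and 0.427% in sST2-KO. Psmb8 was the lowest point of WT replicate 2 at -1.43 and B2m the highest at -0.0047.

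**Figure D3:**
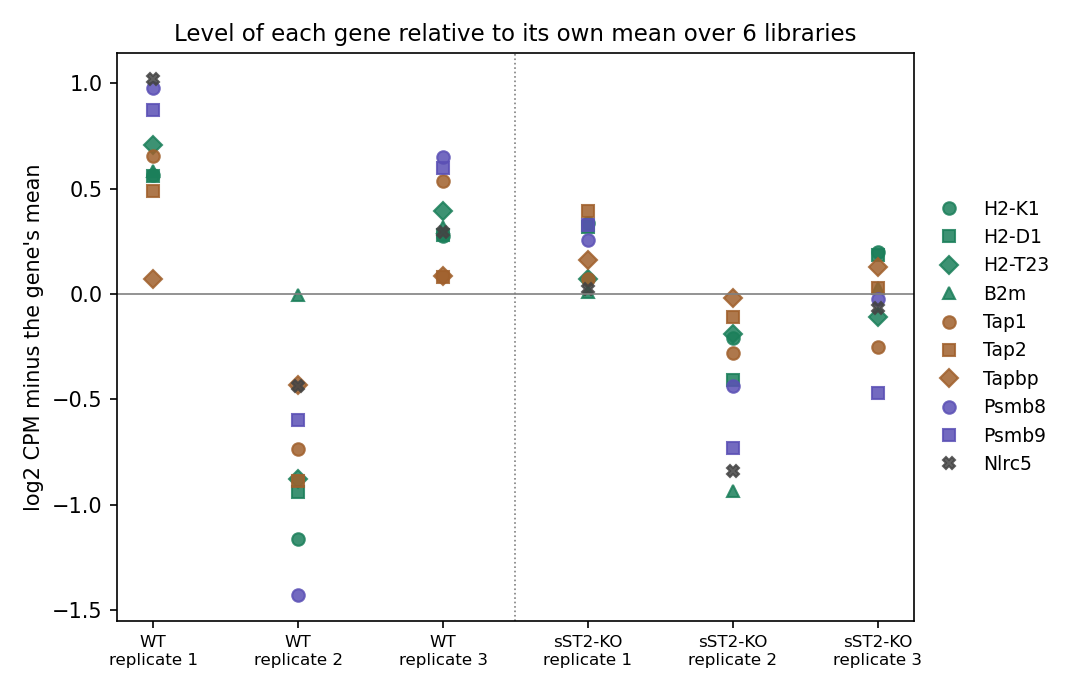
Log2 CPM of each gene minus its mean over the 6 libraries (vertical axis) for the 10 genes in each library; green marks class I chains, brown peptide transport and loading, violet immunoproteasome subunits and grey crosses Nlrc5. Medians are 0.62 for WT replicate 1, -0.81 for WT replicate 2 and -0.34 for replicate 2 of sST2-KO.

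Without WT replicate 2, all 10 log2 changes were negative, with a median of -0.68, against 45.4% of tested genes. In that comparison 6 of the 10 genes, H2-T23, B2m, Tap1, Psmb8, Psmb9 and Nlrc5, separated the remaining libraries with sST2-KO lower, which 15.6% of tested genes did. An unadjusted p under 0.05 was reached by 5 of the 10, against 5.85% of tested genes in the lower direction. Psmb9 had a log2 change of -0.98 (SE 0.35), Nlrc5 -0.97 (SE 0.36), Psmb8 -0.89 (SE 0.24), Tap1 -0.76 (SE 0.16) and H2-T23 -0.65 (SE 0.17), while Tapbp, at 0.16 with all libraries, was at -0.0067 (SE 0.15). Adjusted over all genes, 0 passed in edgeR, with adjusted p of 0.415 to 0.991. WT replicate 2 was the lowest WT library for all 10 genes, so leaving it out raises each WT mean by construction. The shares of tested genes given beside these counts are not limited to genes low in that library. These are the values without that library and not separate support. Without WT replicate 1, by contrast, 5 of the 10 were negative, with a median of 0.016 and values of -0.34 for Psmb9, -0.22 for Nlrc5, -0.18 for Tap1 and -0.0023 for Psmb8, and without WT replicate 3 and sST2-KO replicate 2 together 6 were, with a median of -0.14.

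**Figure D4:**
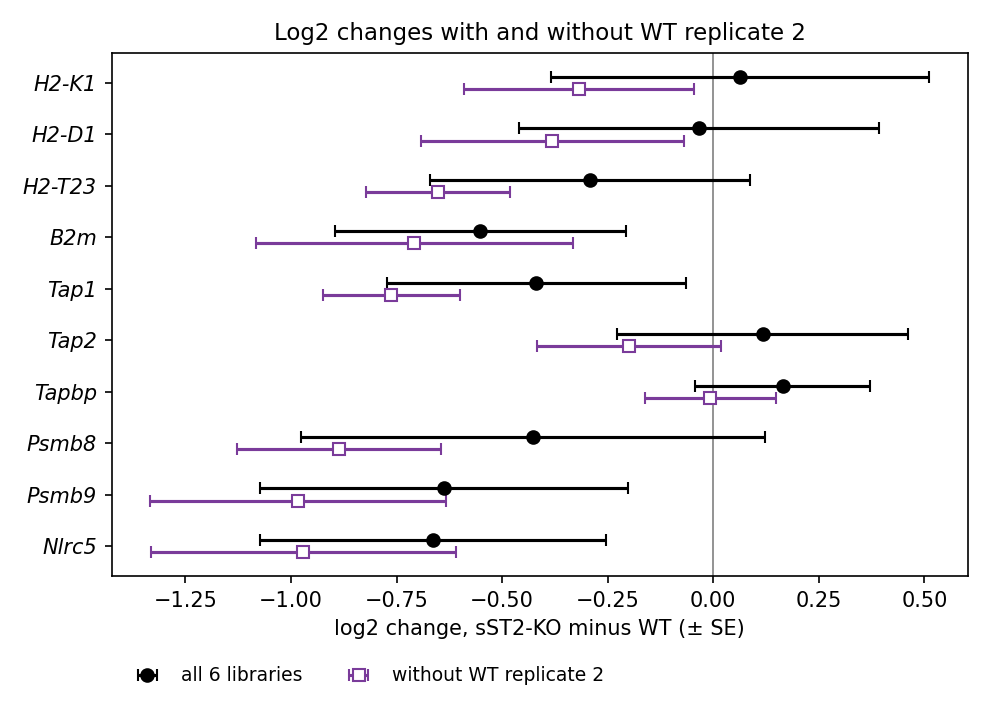
Log2 change of sST2-KO against WT with its SE (horizontal axis) for the 10 genes, from all 6 libraries (black circles) and without WT replicate 2 (open squares). All squares lie to the left of their circles, from -0.98 for Psmb9 to -0.0067 for Tapbp.

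Markers of cell types differed between the same libraries, and their part in the class I values was not tested. Smooth muscle markers summed to 3010, 9255 and 4444 CPM in the WT libraries against 5011, 5653 and 10488 CPM in the sST2-KO libraries. The 5 adipocyte markers, all found, summed to 975, 171 and 723 CPM in WT against 2070, 193 and 2989 CPM in sST2-KO. WT replicate 2 and sST2-KO replicate 2 were lowest in these markers and in the class I median. The other libraries were ordered differently. The class I median was highest in WT replicate 1 (0.62) and was 0.0013 in sST2-KO replicate 3, where adipocyte markers were highest. Replicate 2 of sST2-KO was also lowest in B cell, dendritic cell and endothelial markers. The 10 macrophage markers summed to 2917 to 3478 CPM in WT against 2992, 3816 and 2122 CPM in sST2-KO. The highest sum was in sST2-KO replicate 2, the library with airway transcripts. Lyz2 alone had 1844 to 2043 CPM in WT against 1373 to 3152 CPM in sST2-KO, highest in that same library. It was the 1 macrophage marker with a positive log2 change. The other 9 were negative; over the 10 the median was -0.74, 6 had an unadjusted p under 0.05 in the lower direction (5.95% of tested genes), DESeq2 called 4 lower (1.36%) and edgeR 0. In WT replicate 2 these markers differed among themselves. In WT, Adgre1, the gene of F4/80, had 94.5, 89.3 and 90.9 CPM, Csf1r 196, 181 and 200 CPM and Itgam 53.5, 44.0 and 43.6 CPM. By contrast, the Fc receptor gene Fcgr1 had 45.5, 17.2 and 41.0 CPM and the complement gene C1qa 358, 187 and 360 CPM. Over the 10 markers, log2 CPM minus each gene's own mean had a median of 0.56, 0.19 and 0.50 in the WT libraries. In the sST2-KO libraries that median was -0.066, -0.67 and -0.60. Values in sST2-KO were 42.7, 27.3 and 26.6 CPM for Adgre1, 14.8, 12.02 and 9.05 CPM for Fcgr1 and 239, 173 and 204 CPM for C1qa. The 6 endothelial markers summed to 839 to 1029 CPM in WT against 650 to 1704 CPM in sST2-KO. The 7 dendritic cell markers summed to 112 to 122 CPM and 53.5 to 97.3 CPM, the 5 B cell markers to 23.2 to 35.7 CPM and 9.55 to 34.5 CPM, and the 6 fibroblast markers to 6772 to 8718 CPM and 3137 to 4806 CPM. Of the 6 hepatocyte markers, Ttr and Serpina1a were at 0 in all libraries but WT replicate 3, and Cyp2e1, which adipose tissue also expresses, was at 85.8 to 576 CPM throughout.

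The rest of the pathway is given by list. Of 20 other class I and class I-like heavy chain genes, 16 were tested, 8 with a negative and 8 with a positive log2 change, and 0 passed in edgeR (0 at an unadjusted p under 0.05 and 0 in DESeq2). H2-T24 had the most negative value (-1.05, SE 0.53, edgeR adjusted p = 0.492), followed by H2-M3, which presents formylated peptides (-0.46, SE 0.24), H2-Q6 (-0.44, SE 0.58) and H2-T10 (-0.43, SE 0.33). Among 10 other genes of peptide loading and trimming 9 were negative (46.5% of tested genes), with a median of -0.28, and 0 passed in edgeR or DESeq2. Erap1, the aminopeptidase that trims peptides in the endoplasmic reticulum, was the 1 with an unadjusted p under 0.05. It had 54.8, 67.3 and 55.4 CPM in WT against 46.1, 29.9 and 41.3 CPM in sST2-KO, without overlap and with WT replicate 2 highest, with a fitted log2 change of -0.60 (SE 0.20; adjusted p = 0.435 in edgeR). Tpp2, a cytosolic peptidase, was at -0.50 (SE 0.21) and the folding sensor Uggt1 at -0.28 (SE 0.18), both also without overlap. In this list 5 of 10 genes, with Calr and Canx, were lower without overlap, against 10% of tested genes.

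The inducible proteasome parts Psmb10, Psme1, Psme2 and Pomp had log2 changes of -0.12 to 0.20, with 0 of 4 past the threshold in edgeR or DESeq2 and 0 at an unadjusted p under 0.05. Psme2, the gene of a PA28 activator subunit, had 102, 26.1 and 66.7 CPM in WT against 67.6, 47.0 and 65.1 CPM in sST2-KO, with WT replicate 2 lowest. Among all 16377 tested genes, 8757 had a positive log2 change and the median was 0.042. The constitutive 20S core, which includes Psmb5, Psmb6 and Psmb7, had 11 of 14 positive log2 changes with a median of 0.086. Of its 14 genes, 3 were higher without overlap, against 9.09% of tested genes. The 19S regulatory particle, which unfolds substrates, had 14 of 18 positive with a median of 0.21, and 7 of 18 were higher without overlap (9.09% of tested genes). Its Psmd3 had 72.7, 60.1 and 75.9 CPM in WT against 100, 109 and 105 CPM in sST2-KO (log2 change 0.59, SE 0.15, edgeR adjusted p = 0.386), followed by Adrm1 (0.70, SE 0.23) and Psmd4 (0.59, SE 0.22). In edgeR and DESeq2 0 genes of the 2 lists passed, while 3 of the 19S genes, all higher, and 0 of the core genes had an unadjusted p under 0.05 (5.08% of tested genes in the higher direction).

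Of 24 genes of the class I enhanceosome and of interferon signalling, 23 were tested. Of these, 18 were below 0 on the log2 scale (46.5% of tested genes), with a median of -0.18. Without overlap were 6 lower and 3 higher, against 10% and 9.09% of tested genes. In edgeR and DESeq2 0 passed, and at an unadjusted p under 0.05 there were 6 lower and 1 higher, against 5.95% and 5.08% of tested genes. Ifnar1, a chain of the type I interferon receptor, had 76.3, 73.7 and 72.9 CPM in WT against 61.4, 49.4 and 41.5 CPM in sST2-KO, without overlap (log2 change -0.55, SE 0.18, edgeR adjusted p = 0.431). The kinase gene Jak2 was at -0.48 (SE 0.16) and Stat2 at -0.70 (SE 0.24). Rfx5, Rfxap and Rfxank, whose products bind the X box, were at -0.027, 0.24 and 0.55. Ifng, the gene of interferon-gamma itself, was not tested, with at most 0.331 CPM in any library.

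Genes of cells and receptors that recognise class I ranged widely in level. Cd8a, the gene of a CD8 chain, had 4.36, 4.23 and 5.49 CPM in WT against 9.32, 0.693 and 3.19 CPM in sST2-KO, with the highest and the lowest library both in sST2-KO (log2 change -0.093, SE 0.80, edgeR adjusted p = 0.970). Of 14 listed genes 11 were tested and 9 were below 0 on the log2 scale, with a median of -1.08; 0 passed in edgeR and 3 had an unadjusted p under 0.05, the same 3 that DESeq2 called lower, against 5.95% and 1.36% of tested genes. They were Lilrb4a and Pirb, inhibitory receptors of myeloid cells, and Klrk1, the activating NK receptor NKG2D. Pirb, whose product binds class I, had 90.0, 74.9 and 78.4 CPM in WT against 46.8, 28.7 and 22.2 CPM in sST2-KO, with a fitted log2 change of -1.32 (SE 0.28; adjusted p = 0.339 in edgeR, DESeq2 adjusted p = 0.00689). Lilrb4a had 59.1, 58.7 and 49.6 CPM in WT against 23.6, 13.8 and 11.8 CPM in sST2-KO (log2 change -1.77, SE 0.28, edgeR adjusted p = 0.294). In both, WT replicate 2 was close to the other WT libraries. The macrophage markers given above, 9 of 10 of them negative, differed between the same groups, and their part in these values was not tested.

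The genes closest in pattern to the mean of the 10, by Pearson correlation of log2 CPM over the 6 libraries, which share their scaling, were Npc2 (r = 0.993), H2-T22 (0.990), Tmem256 (0.987), Emilin1 (0.983) and Bcl2a1b (0.983). H2-T22, a non-classical class I gene that neighbours H2-T23 on chromosome 17, had 161, 69.1 and 134 CPM in WT against 115, 76.3 and 97.9 CPM in sST2-KO. Npc2, a lysosomal cholesterol carrier, had 518, 248 and 424 CPM in WT against 422, 282 and 372 CPM in sST2-KO. Each of the 10 was also correlated with the mean of the other 9, and r was highest for Psmb8 (0.977) and lowest for B2m (0.609). Bcl2a1b and H2-T22 belong to families of similar genes among which reads may have been split. These are descriptions over 6 libraries chosen from 16377 genes.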

How the data were processed

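Aortic RNA from 3 WT and 3 sST2-KO mice was sequenced after poly-T selection, per the labels' protocols. Values in the authors' single deposited table are whole-number counts for each Ensembl gene before any scaling, with gene length in bases beside them. The submitters' processing notes name the build mm39. The aligner, the counter with its strand setting, and the annotation release are not given in these sources. Samples were grouped by title and columns by library name, and 0 columns of values were unmatched.

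Counts were tested on the whole table with edgeR 4.0.16 in R 4.3.3: filterByExpr (minimum count 10, minimum total 15), TMM scaling, glmQLFit and glmQLFTest, Benjamini-Hochberg adjustment over 16377 genes and a threshold of 0.05. SE is the log2 change divided by the square root of F, and log2 levels use a prior count of 2. Ratios of subunits used counts plus 0.5. The test was tested on simulated counts. Alternatives were upper-quartile or RLE scaling, DESeq2 1.42.0, limma-voom 3.58.1 (plain or with quality weights), other filters, no mitochondrially encoded genes, a replicate block and leaving out libraries. Members and lists were chosen with earlier results of these data known; of 187 list entries 187 were found. Named by rule are the 10 members, the 3 genes of each list with the lowest p and the 5 genes closest in pattern. Rfx5, Rfxap, Rfxank, Ifng, Cd8a, Psmb10, Zbtb22 and H2-Q6 were added after values were seen. Calr, Canx, Lyz2, Fcgr1, C1qa, Ttr and Serpina1a are also named outside that rule, and Il1rl1 and Apoe as a check of the labels. Promoter motifs and gaps were set after matches were seen. The values of 1 listed gene are not reported here. For a symbol on several rows, the row with more counts was taken. Libraries are separate mice as far as the labels say. Plots used matplotlib 3.10.9.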

Additional observations from a re-analysis of the deposited data

How the results depend on the processing

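Over all genes, edgeR called 0 under each scaling and filter, with the replicate block, and without WT replicate 3 and sST2-KO replicate 2 together; leaving out 1 library gave 0 to 1, the 1 lower gene arising without sST2-KO replicate 2. DESeq2 called 281 (58 higher, 223 lower), and limma-voom with sample quality weights 43 (8 higher, 35 lower). Of the 10 genes 0 passed under any of these. The number with a negative log2 change was 5 to 10 when 1 library was left out, 6 with the replicate block and 8 with quality weights. The summed heavy chain counts turned positive with limma-voom (0.12), with the replicate block (0.084) and without WT replicate 3 and sST2-KO replicate 2 together (0.23), and ranged from -0.39 to 0.27 when 1 library was left out. H2-D1 turned positive with limma-voom (0.0996), with the block (0.063) and without those 2 libraries (0.24), and H2-K1 turned negative with quality weights (-0.059). Leaving out 1 library gave -0.32 to 0.40 for H2-K1, -0.38 to 0.27 for H2-D1, -0.65 to 0.035 for H2-T23, -0.20 to 0.45 for Tap2, -0.0067 to 0.25 for Tapbp and -0.26 to 0.40 for Psmb10 over Psmb7. B2m, Tap1, Psmb8, Psmb9 and Nlrc5 were negative under all of these, and leaving out 1 library gave -0.71 to -0.30 for B2m, -0.76 to -0.18 for Tap1, -0.89 to -0.0023 for Psmb8, -1.02 to -0.34 for Psmb9 and -0.97 to -0.22 for Nlrc5. The cause of these changes was not tested beyond the library or tool named. The labels do not say that replicate numbers pair the samples. Deviations from group means correlated at 0.15, 0.046 and -0.087 for numbers 1 to 3. WT replicate 1 correlated best with its own number, and WT replicate 3 did not. For WT replicate 2 the values were nearly equal with sST2-KO replicate 2 (0.046) and sST2-KO replicate 3 (0.045). With 3 libraries per group these values cannot decide whether animals were paired. Depth was ample for the 10 genes, at 157 or more counts in every library, so the spread between libraries sets the precision.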
